A study of Arabidopsis thaliana with 9 samples.

Results

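The genes described here lay away from wild type in leaves of the Arabidopsis thaliana mutant bio4-1 whether or not the plants were watered with biotin. They are 86 of the 13513 probe sets that name 1 gene, each for a different gene. A gene was taken when its log2 values on all 6 mutant arrays lay above the highest, or all below the lowest, of the 3 wild type values. Both mutant group means also had to differ from the wild type mean by at least 0.4 on the log2 scale. In all, 90 probe sets met these conditions, 46 above wild type (0.34%) and 44 below (0.326%), and 4 of them were left out by the choice of genes. Of the 86 that remained, 43 lay above wild type and 43 below. The genes were thus chosen by their measured log2 differences from wild type in both mutant groups, so those differences are given as descriptions and carry no test.

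Leaf RNA was measured on 9 Affymetrix ATH1 arrays, 1-colour chips whose short oligonucleotide probes are combined into 1 value per probe set, given on the log2 scale. The groups were water-grown wild type, water-grown bio4-1, and bio4-1 given 200 µM D-biotin with its weekly watering, each with 3 arrays. All plants were of ecotype Col-0 and 5 weeks old, each array held RNA pooled from 5 plants, and the only mutant was 1 T-DNA insertion allele, in the 5' UTR of BIO4. Wild type plants were all grown on water, so what biotin watering does in any plant cannot be told apart from what it does in the mutant.

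Biotin is the cofactor of carboxylases, among them the acetyl-CoA carboxylase that begins fatty acid synthesis and the methylcrotonyl-CoA carboxylase of leucine breakdown. Plants make their own biotin, and the reference annotation gives BIO4 as another name of BIOF, the gene of KAPA synthase, an enzyme early in that synthesis. Supplied biotin can replace the missing product in plants that lack a step of the pathway, and the genes here are those that still lay apart from wild type when it was supplied. No probe set was paired with BIO4 by the annotation used, so its own level was not analysed here.

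The arrays numbered 1 stood apart in all groups. Pairs with exactly 1 of them correlated at 0.95 to 0.972 across probe sets, and pairs without them at 0.987 to 0.997. Deviations of arrays numbered 1 from their group means correlated at 0.834 between wild type and biotin-watered bio4-1. Array 1 of water-grown bio4-1 shared less, with 0.218 against wild type and 0.345 against biotin-watered bio4-1. Among the controls read at both transcript ends, indicators of RNA integrity, actin had a 3' minus 5' difference of 3.67, 3.75 and 4.13 on the arrays numbered 1 of wild type, bio4-1 and biotin-watered bio4-1, and of 2.27 to 2.76 on the others. For GAPDH it was 1.55 to 2.61 on the arrays numbered 1 and 0.58 to 0.98 on the others, and for ubiquitin the ranges overlapped, 1.52 to 1.73 against 1.48 to 1.72. The part of these differences in the results below was not tested. RCA, the activase of the carbon-fixing enzyme and a marker of leaf photosynthetic cells, read 13.77 to 13.86 on all 9 arrays, with identical values on several. PRK, the other measured marker of these cells, read 12.32 to 12.85. Of 26 cell type markers, 6 had a probe set naming them alone. The trichome patterning gene TRY was the one furthest from wild type, with 7.05, 6.53 and 6.39 in wild type, 6.97, 5.81 and 5.76 in bio4-1 and 6.94, 4.91 and 4.33 with biotin. In leaf tissue, fewer cells of a type and less RNA per cell cannot be told apart, and the part of cell makeup in the results was not tested.

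The 43 genes above wild type had a median log2 difference from it of 1.00 in water-grown bio4-1 (range 0.42 to 3.79) and 0.62 with biotin (0.40 to 1.27). More than a doubling of the level was seen for 22 of them in water-grown and for 3 in biotin-watered plants. Over all probe sets with 1 gene name, 3.08% had the 3 water-grown bio4-1 arrays above wild type with a mean difference of at least 0.4, and 0.622% had the 3 biotin-watered arrays there.

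**Figure D1:**
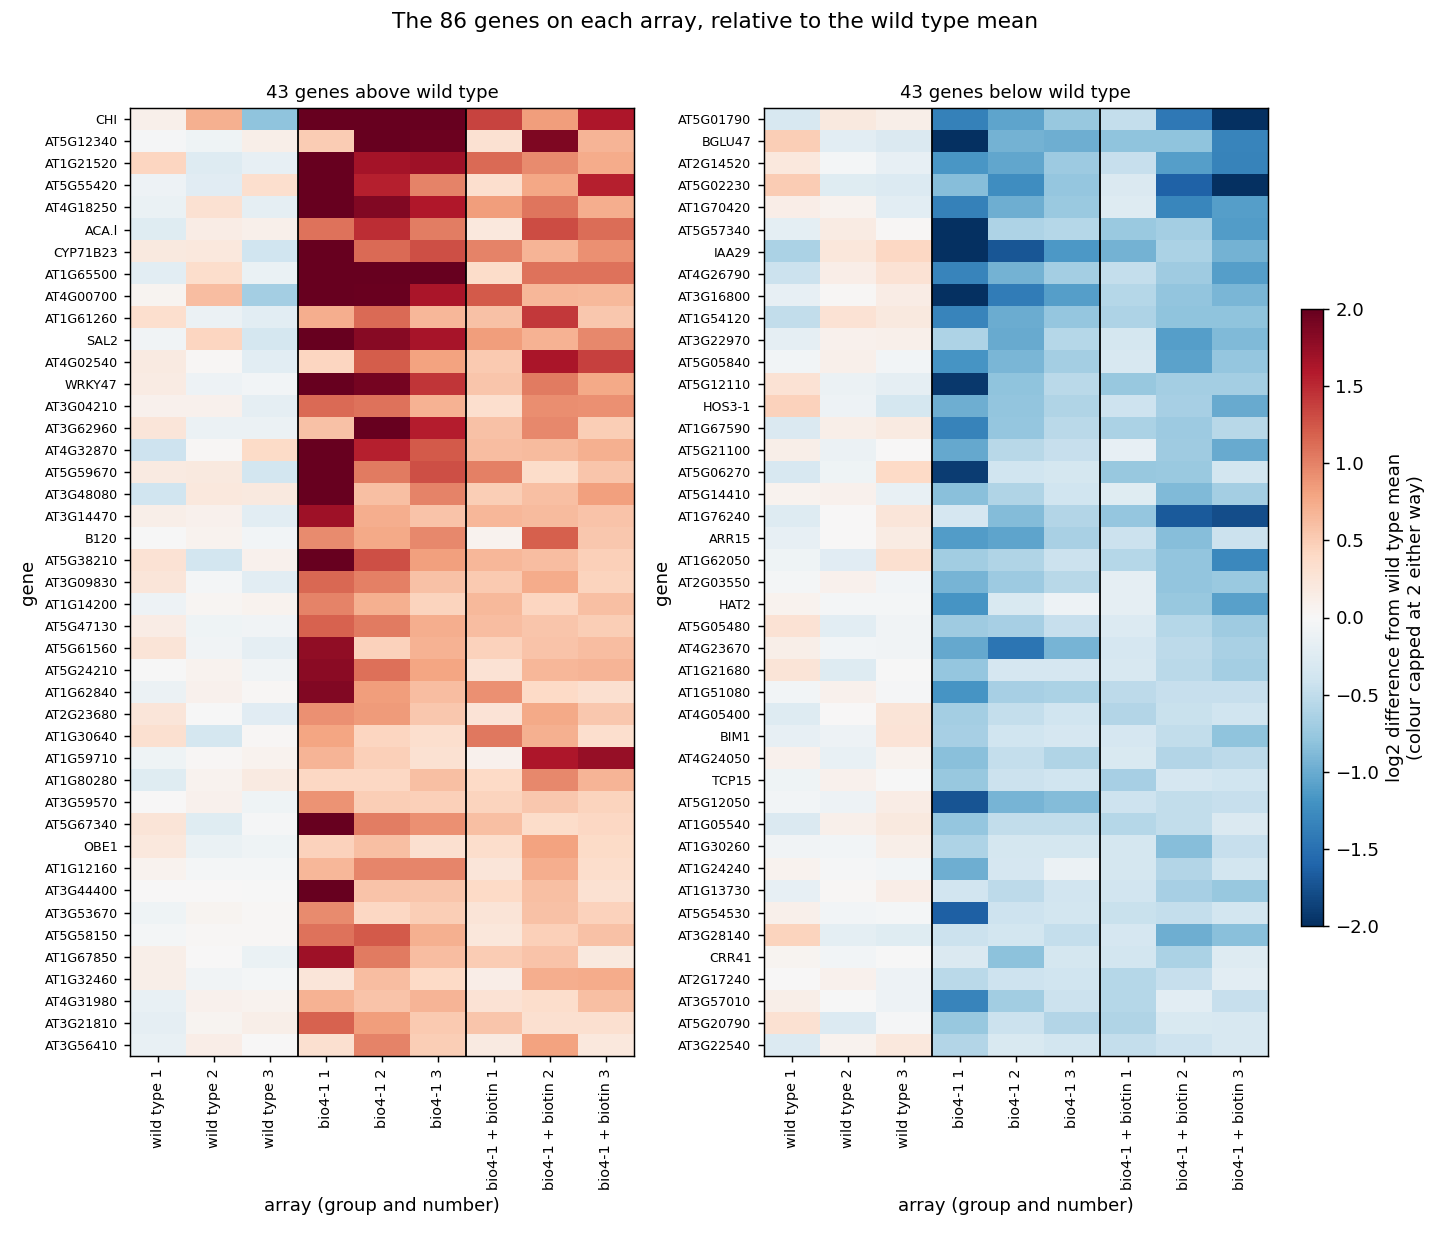
Each row is 1 of the 86 genes and each column 1 array. Colour gives the log2 difference from the wild type mean, capped at 2 either way, with genes ordered by the smaller of their differences in the 2 mutant groups. All mutant columns lie on 1 side of wild type, which the choice of genes fixes, and bio4-1 array 1 has the deepest colours for many genes.

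CHI, annotated as a putative chitinase, an enzyme class that cuts the chitin of fungal walls, had the largest difference among them. It read 4.86, 5.46 and 3.95 on wild type arrays 1, 2 and 3, then 11.54, 7.34 and 6.76 in bio4-1 and 6.11, 5.59 and 6.38 with biotin. The mutant groups did not overlap, and array 1 of bio4-1 stood far above the other 2. In means this was 4.76 ± 0.76 (SD, n = 3) in wild type, 8.55 ± 2.61 in bio4-1 and 6.02 ± 0.40 with biotin.

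CYP71B23 encodes a cytochrome P450, one of a large family of oxidising enzymes. Its values were 7.05, 7.08 and 6.46 in wild type, 9.85, 7.99 and 8.15 in bio4-1 and 7.86, 7.55 and 7.78 with biotin. The lowest mutant array exceeded the highest wild type array by 0.47, the widest such gap among the genes above wild type. SAL2, a relative of the phosphatase SAL1 that acts in sulfur metabolism and stress signalling, read 4.33, 4.83 and 4.05 in wild type, 9.02, 6.22 and 6.06 in bio4-1 and 5.24, 5.10 and 5.37 with biotin. Here too the biotin-watered arrays lay between wild type and water-grown bio4-1.

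WRKY47 encodes a transcription factor of the WRKY family, which has many members that act in defence and nutrient responses. It read 5.76, 5.50 and 5.56 in wild type, 8.18, 7.52 and 7.03 in bio4-1 and 6.16, 6.64 and 6.36 with biotin. The 3 groups were fully separate, with the biotin-watered arrays between wild type and water-grown bio4-1. Fold differences from wild type were 3.93 in bio4-1 and 1.72 with biotin.

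ACA.l carries the annotated name of an autoinhibited calcium ATPase, and whether its product has that role was not examined here. Values of ACA.l were 8.24, 8.63 and 8.59 in wild type, 9.58, 9.96 and 9.51 in bio4-1 and 8.70, 9.79 and 9.60 with biotin. Biotin-watered array 1 lay close to wild type, whereas arrays 2 and 3 were among the bio4-1 values. B120, a receptor kinase gene of the S-locus lectin class, read 3.89, 3.96 and 3.84 in wild type, 4.83, 4.66 and 4.86 in bio4-1 and 3.96, 5.09 and 4.43 with biotin. The gap between its biotin-watered array 1 and the highest wild type array was 0.0004, so a minute shift would have left it out. OBE1, a nuclear protein gene of meristem maintenance, read 7.48, 7.14 and 7.20 in wild type, 7.73, 7.87 and 7.59 in bio4-1 and 7.63, 8.07 and 7.66 with biotin, with the mutant groups overlapping.

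The other genes above wild type carry only a locus code in the tables used, and no role is given for them. AT1G65500 had the second largest difference in bio4-1, with 4.39, 4.95 and 4.46 in wild type, 9.40, 6.73 and 7.28 in bio4-1 and 4.97, 5.69 and 5.69 with biotin. In biotin-watered array 1 it exceeded the highest wild type value by 0.015. AT4G00700 differed from wild type by 2.76 in bio4-1 and 0.84 with biotin, AT1G21520 by 2.41 and 0.94, and AT4G18250 by 2.12 and 0.88. In these 3 genes the biotin-watered arrays all lay below the bio4-1 arrays. The gaps between the lowest mutant and the highest wild type array were 0.027, 0.31 and 0.42 in the same order.

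AT5G12340 went with the array number in both mutant groups. It read 3.39, 3.34 and 3.53 in wild type, 3.93, 5.79 and 5.37 in bio4-1 and 3.73, 5.29 and 4.10 with biotin. AT1G61260 had nearly equal differences from wild type in the mutant groups, 0.85 and 0.84. For AT4G02540 the larger difference was with biotin, 1.18 against 0.82, and for AT5G55420 it was without, 1.69 against 0.89. The lowest mutant array of AT5G55420 exceeded its highest wild type array by only 0.004. AT1G59710 read 7.11, 7.22 and 7.27 in wild type, 7.89, 7.68 and 7.51 in bio4-1 and 7.29, 8.82 and 8.94 with biotin, where arrays 2 and 3 stood above every other array and array 1 was nearest to wild type.

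The remaining genes above wild type were AT3G04210, AT3G62960, AT4G32870, AT5G59670, AT3G48080, AT3G14470, AT5G38210, AT3G09830, AT1G14200, AT5G47130, AT5G61560, AT5G24210, AT1G62840, AT2G23680, AT1G30640, AT1G80280, AT3G59570, AT5G67340, AT1G12160, AT3G44400, AT3G53670, AT5G58150, AT1G67850, AT1G32460, AT4G31980, AT3G21810 and AT3G56410. AT3G56410 was nearest the limit from inside, with 0.60 in bio4-1 and 0.4034 with biotin, and AT1G33030 nearest from outside, with 1.95 and 0.3997. A second probe set named AT3G59570, and there the differences were 0.27 in bio4-1 and 0.31 with biotin, on the same side as the chosen one. Another named AT3G53670 and gave 0.16 and −0.15, so it did not place the biotin-watered mean above wild type.

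**Figure D2:**
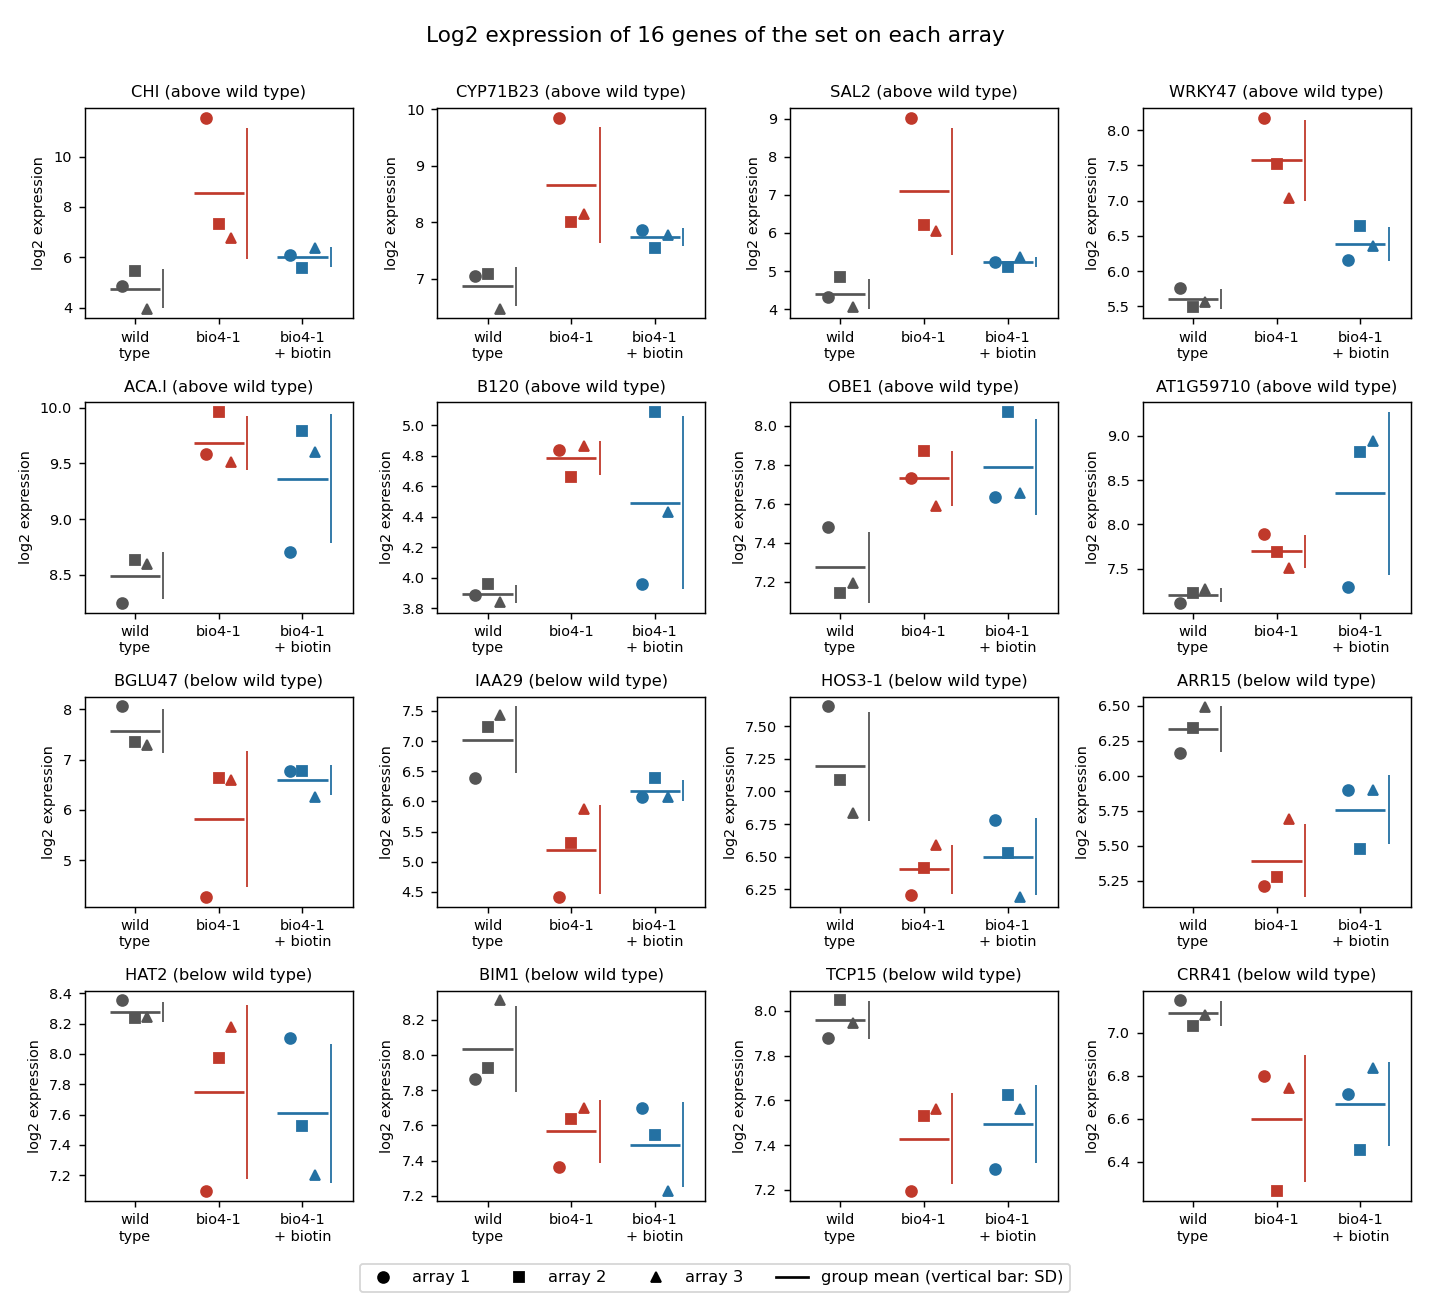
Log2 expression of 16 of the genes on each array, the 15 with a gene symbol and AT1G59710, with marker shape for the array number, a horizontal line for the group mean and a vertical bar for the SD (n = 3). Axes differ between panels and do not start at 0. CHI, CYP71B23, SAL2 and WRKY47 show biotin-watered arrays between wild type and bio4-1, and IAA29 shows the same from below.

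The 43 genes below wild type lay closer to it. Their median log2 difference was −0.74 in water-grown bio4-1 (range −1.82 to −0.42) and −0.60 with biotin (−1.41 to −0.41). Over all probe sets with 1 gene name, 2.49% had the 3 bio4-1 arrays below wild type with a mean difference of at least 0.4, and 0.629% had the 3 biotin-watered arrays there. The level was less than 0.5 of wild type for 10 of the 43 in water-grown bio4-1 and for 3 with biotin.

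BGLU47, of the beta-glucosidases that split sugars from glycosides, had the widest gap to wild type of all 86 genes, 0.52. It read 8.07, 7.36 and 7.29 in wild type, 4.26, 6.62 and 6.59 in bio4-1 and 6.77, 6.77 and 6.25 with biotin. Array 1 of bio4-1 was far below the other mutant arrays, and the bio4-1 mean was 5.83 ± 1.36 (SD, n = 3) against 6.60 ± 0.30 with biotin.

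IAA29 encodes an Aux/IAA protein, a repressor of auxin-responsive transcription whose own gene responds to auxin. It read 6.39, 7.24 and 7.44 in wild type, 4.41, 5.31 and 5.87 in bio4-1 and 6.08, 6.38 and 6.08 with biotin. The highest biotin-watered array and wild type array 1 were 0.0052 apart, and the mutant groups did not overlap. HAT2, a homeodomain-leucine zipper gene inducible by auxin, read 8.35, 8.24 and 8.24 in wild type, 7.09, 7.97 and 8.18 in bio4-1 and 8.10, 7.53 and 7.20 with biotin. Its arrays were ordered in opposite ways in the mutant groups, with the lowest value on array 1 in one and on array 3 in the other.

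ARR15 encodes a type-A response regulator, which dampens cytokinin signalling. It read 6.16, 6.34 and 6.49 in wild type, 5.21, 5.28 and 5.69 in bio4-1 and 5.90, 5.47 and 5.90 with biotin, with overlapping mutant groups. BIM1, a basic helix-loop-helix partner of the brassinosteroid regulator BES1, read 7.86, 7.93 and 8.31 in wild type, 7.36, 7.63 and 7.70 in bio4-1 and 7.70, 7.54 and 7.23 with biotin. TCP15, of a transcription factor family that controls cell proliferation in leaves, read 7.88, 8.05 and 7.95 in wild type, 7.19, 7.53 and 7.56 in bio4-1 and 7.29, 7.62 and 7.56 with biotin. For BIM1 and TCP15 the mutant groups covered much the same range.

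HOS3-1, whose product resembles enzymes of fatty acid elongation, read 7.65, 7.09 and 6.83 in wild type, 6.21, 6.41 and 6.59 in bio4-1 and 6.78, 6.53 and 6.19 with biotin. CRR41, needed for the assembly of the chloroplast NADH dehydrogenase-like complex, read 7.15, 7.03 and 7.08 in wild type, 6.80, 6.26 and 6.74 in bio4-1 and 6.71, 6.45 and 6.83 with biotin. In both genes the mutant groups overlapped, and the differences from wild type were −0.79 and −0.69 for HOS3-1 and −0.49 and −0.42 for CRR41.

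Among the locus codes with no symbol, AT5G01790 had the largest smaller difference, with −1.06 in bio4-1 and −1.32 with biotin. It read 8.05, 8.56 and 8.49 in wild type, 7.01, 7.31 and 7.60 in bio4-1 and 7.88, 6.93 and 6.31 with biotin, so that biotin-watered array 1 was near wild type and array 3 the lowest of all. AT5G02230 had the same order in biotin-watered plants, with 8.86, 7.53 and 7.11, against 8.28, 7.90 and 8.37 in bio4-1 and 9.66, 8.91 and 8.87 in wild type. AT2G14520 differed by −0.98 in bio4-1 and −0.97 with biotin, AT1G70420 by −1.02 and −0.89, and AT5G57340 by −1.06 and −0.84. AT3G16800 differed by −1.54 and −0.75, AT4G26790 by −0.98 and −0.76, AT1G54120 by −1.03 and −0.74, AT3G22970 by −0.73 and −0.78, and AT5G05840 by −0.92 and −0.72. AT1G76240 had the largest difference with biotin of all genes below wild type, −1.41 against −0.59 in bio4-1.

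The remaining genes below wild type were AT5G12110, AT1G67590, AT5G21100, AT5G06270, AT5G14410, AT1G62050, AT2G03550, AT5G05480, AT4G23670, AT1G21680, AT1G51080, AT4G05400, AT4G24050, AT5G12050, AT1G05540, AT1G30260, AT1G24240, AT1G13730, AT5G54530, AT3G28140, AT2G17240, AT3G57010, AT5G20790 and AT3G22540. AT1G30260 is also named AGAMOUS-like 79 in the reference annotation. AT3G22540 was nearest the limit from inside, with −0.42 and −0.4055, and AT5G57345 nearest from outside, with −0.73 and −0.3994. AT5G57345 is the locus next to AT5G57340, which is in the set.

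The separation from wild type was narrow for many genes. The gap between the nearest wild type and mutant arrays was under 0.1 for 11 genes above and 17 below wild type, with medians of 0.20 and 0.13. It exceeded the whole range of the 3 wild type values for 12 of 43 above and 10 of 43 below. Without the limit of 0.4, 2.73% of probe sets with 1 gene name had all 6 mutant arrays on 1 side of wild type. Arrays in random order would also give some such probe sets, and that share was not set beside it. The value is thus a description and does not show that separation was more common than in random order.

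Each mutant group was set against wild type in choosing the genes, but not against the other mutant group, and the difference between the mutant groups was tested. Biotin-watered minus water-grown bio4-1 had a median of −0.44 over the genes above wild type and 0.10 over those below, against 0.03 over all 13513 probe sets. The biotin-watered mean was the lower one for 37 of 43 genes above wild type (86%), against 42.1% of all probe sets, and the higher one for 32 of 43 below (74.4%), against 57.9%. The groups did not overlap for 16 of the 43 genes above wild type, all lower with biotin (37.2%), against 3.63% of all probe sets. They did not overlap for 5 of the 43 below, all higher with biotin (11.6%), against 5.05%. Both mutant means entered the choice of genes, and fewer probe sets passed the limit of 0.4 in biotin-watered than in water-grown plants. The shares over all probe sets are therefore a description and not what these genes would show with no difference between the mutant groups. The same holds for the shares below at an unadjusted or adjusted p.

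None of the 86 genes passed limma at an adjusted p of 0.05 for this difference, and neither did any of the 22746 probe sets tested (0%). At an unadjusted p under 0.05 there were 22 of 86 genes (25.6%), against 1033 of 22746 probe sets (4.54%). They were 16 genes above wild type, all lower with biotin, where 2.44% of probe sets were lower at that p, and 6 below it, 5 of them higher with biotin, where 2.1% were. With array weights, 8 of the 86 were called at the adjusted threshold (9.3%), against 3.5% of probe sets. WRKY47 had the lowest unadjusted p of the 86, 0.00236, with a difference of −1.19 ± 0.27 (SE) and a limma adjusted p of 0.703. AT4G23670 had 0.63 ± 0.16 (adjusted p = 0.823), AT4G18250 −1.25 ± 0.32 (0.823) and AT1G65500 −2.35 ± 0.62 (0.839), all by limma. CHI differed by −2.52 ± 1.13, SAL2 by −1.86 ± 0.71, CYP71B23 by −0.93 ± 0.46 and IAA29 by 0.98 ± 0.39, each with a limma adjusted p of 1.00. A p above the threshold does not show that the mutant groups were alike.

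The order of the mutant groups rested in large part on the arrays numbered 1. Of the genes above wild type, 41 of 43 were lower with biotin on array 1, with a median difference of −0.88, and 30 and 31 on arrays 2 and 3, with medians of −0.28 and −0.20. Of the genes below wild type, 39 of 43 were higher with biotin on array 1, with a median of 0.66, but 18 and 12 on arrays 2 and 3, where the medians were −0.06 and −0.14. The median of the genes below wild type thus had opposite signs on array 1 and on arrays 2 and 3. Over all probe sets the median difference was 0.05 on array 1 and 0.00 on arrays 2 and 3. Arrays of the same number are not known to be pairs, so each difference sets separate pooled samples side by side. The genes are not replicates, and these counts carry no test.

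**Figure D3:**
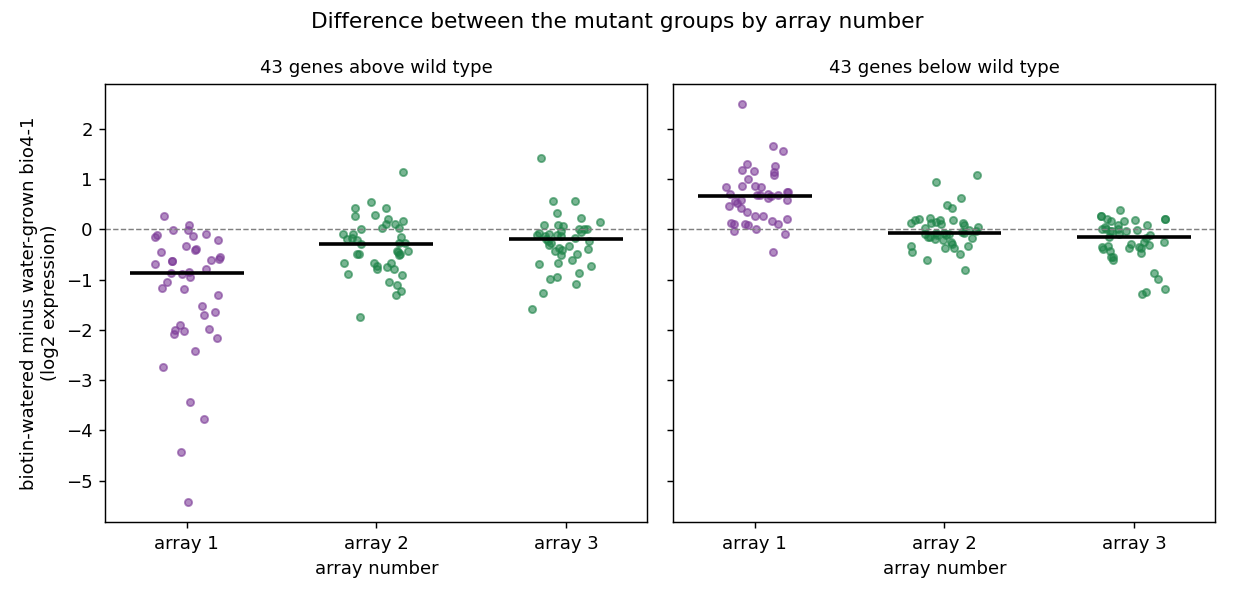
Biotin-watered minus water-grown bio4-1 in log2 expression for each gene, by array number, with a horizontal line at the median of 43 genes and a dashed line at 0. On array 1 the medians are −0.88 for genes above and 0.66 for genes below wild type, and on arrays 2 and 3 they lie between −0.28 and −0.06. Horizontal scatter within an array has no meaning, and arrays of the same number are not known to be pairs.

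In the same way, bio4-1 array 1 was the highest of its group for 31 of the 43 genes above wild type (72.1%), against 35.1% of all probe sets, and the lowest for 36 of the 43 below (83.7%), against 44.5%. The bio4-1 mean, of which array 1 is a part, entered the choice of genes, so these shares are a description only. Without bio4-1 array 1, the median difference of water-grown bio4-1 from wild type went from 1.00 to 0.89 above and from −0.74 to −0.59 below. Without it, the median of biotin-watered minus water-grown bio4-1 was −0.33 above and −0.03 below, the second of the opposite sign to that with all arrays.

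On arrays 2 and 3 of each group alone, a choice made after the data were seen, 7 of the 86 genes were called by limma (8.14%), against 3.35% of all probe sets. Here too the share over all probe sets is a description, since both mutant means entered the choice of genes. Among the genes above wild type, AT1G65500 fell with biotin by 1.32 (adjusted p = 0.0230), AT3G62960 by 1.15 (0.0377), AT1G21520 by 0.84 (0.0127) and AT5G67340 by 0.57 (0.0406), towards wild type. AT1G59710 rose by 1.28 (adjusted p = 0.00427), away from wild type. Below wild type, AT1G76240 fell by 1.00 (0.0129) and HAT2 by 0.71 (0.0365) in the same limma fit, both further from wild type. AT3G62960 read 7.15, 6.79 and 6.80 in wild type, 7.51, 9.10 and 8.48 in bio4-1 and 7.50, 7.87 and 7.40 with biotin, with array 1 nearly equal in the mutant groups. AT1G76240 read 7.16, 7.44 and 7.67 in wild type, 7.09, 6.56 and 6.84 in bio4-1 and 6.65, 5.74 and 5.66 with biotin, lower with biotin on each array number. On the arrays numbered 1, AT1G59710 differed by −0.60 and HAT2 by 1.01, opposite to arrays 2 and 3.

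The conditions were also applied to 2 array numbers at a time, and the sets so chosen, which only partly match the 86 genes, were read on the array number left out. With the conditions applied to arrays 1 and 3, 61 probe sets lay above wild type, and on array 2 bio4-1 was above wild type for 58 of them (95.1%) and biotin-watered bio4-1 for 56 (91.8%). The shares among all other probe sets were 51.1% and 52.6%. Of these 61, 31 were in the set. For the 76 below wild type, 37 of them in the set, the same shares were 86.8% and 78.9%, against 44.1% and 43%.

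Arrays 1 and 2 chose 74 above and 74 below, of which 41 and 38 were in the set, and on array 3 the shares were 93.2% in both mutant groups above, against 39.2% and 42%, and 85.1% and 89.2% below, against 57.2% and 54.7%. Arrays 2 and 3 chose 260 above, 39 of them in the set, and on array 1 72.7% were higher in bio4-1 and 60.8% with biotin, against 41.9% and 48.8%. The 237 they chose below, 34 of them in the set, were lower in 57% and 55.7%, against 56.5% and 49.4%, close to the share among other probe sets for bio4-1. Both mutant readings on a held-out array number share 1 wild type array, and all 3 array numbers entered the choice of the 86 genes, so no test is given and these shares are no support for the set.

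The number of genes that met the conditions depended on 2 arrays most. Without wild type array 1 it was 381, and without biotin-watered array 1 it was 297, whereas leaving out any 1 bio4-1 array gave 84 to 95.

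By chromosome, the genes above wild type were 27.9% on chromosome 1, 4.65% on 2, 27.9% on 3, 16.3% on 4 and 23.3% on 5. Those below were 32.6%, 6.98%, 11.6%, 16.3% and 32.6% in the same order, and all singly named genes with a locus were 25.7%, 16.4%, 20.4%, 14.6% and 22.4%. No 2 of the 86 were next to each other among measured genes. AT1G51080 and CRR41, both below wild type, had 1 measured gene between them, as did AT5G12050 and AT5G12110.

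Genes below wild type made up a larger share of the set near BIO4 than elsewhere on the chromosome. On chromosome 5, 14 were below and 10 above wild type, and in the order of annotated loci the 6 nearest to BIOF (AT5G04620) were all below. AT5G05480 was 106 loci away, AT5G05840 153, AT5G06270 213, AT5G02230 305, AT5G01790 361 and BIM1 445. Within 500 loci on either side of BIOF lay 6 of the 43 genes below wild type (14%), none of the 43 above, and 2.85% of measured genes. Within 2000 loci lay 11 of the 43 below (25.6%), 1 of the 43 above (2.33%) and 7.41% of measured genes. The windows were chosen after the positions were seen, so these shares carry no test, and the part of position near the insertion was not tested.

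**Figure D4:**
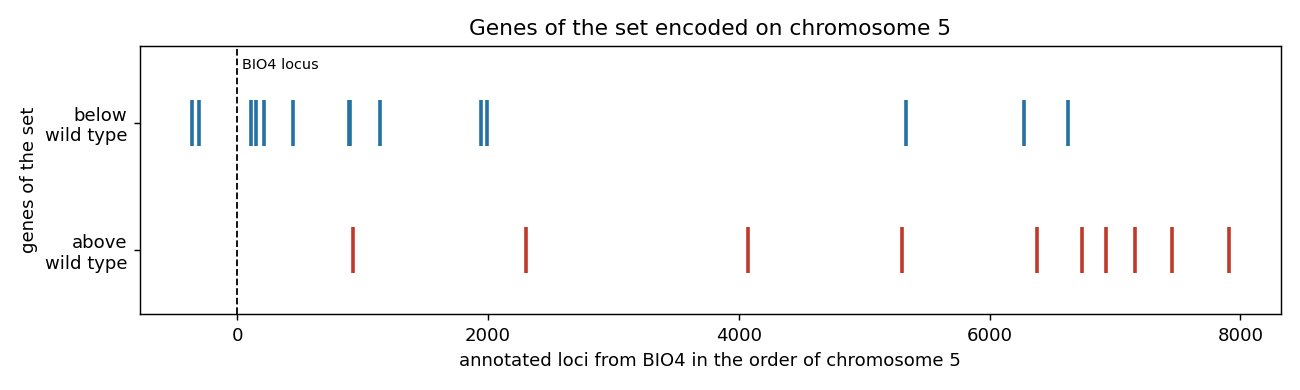
Genes of the set on chromosome 5 by the number of annotated loci from the BIO4 locus (dashed line at 0), with 1 tick for each of the 14 genes below and 10 above wild type. The 6 ticks nearest to the line all belong to genes below wild type.

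In all, 10 lists of pathway genes, with 161 genes together, were read beside the set. Only 24 of them had a singly named probe set, none in the lists of heat and oxidative stress and of iron, phosphate and sulfur supply. None of the 24 was in the set. As the set is 86 of 13513 probe sets, that count says little about these pathways. Limma called none of the 24 between the mutant groups, as it called none of all probe sets (0%). Median log2 differences from wild type, first in bio4-1 and then with biotin, were −0.12 and 0.10 for the 2 measured biotin genes, MCCA and MCCB of methylcrotonyl-CoA carboxylase. They were 2.06 and −0.34 for 2 genes of salicylic acid defence, −0.57 and −1.17 for 3 of jasmonate and ethylene defence, and −1.07 and 0.34 for 5 of abscisic acid, drought and cold response. For 7 genes of cell wall growth they were 0.51 and 1.05, for 3 of phenylpropanoid and flavonoid synthesis −0.52 and 0.01, for the clock gene GI 0.26 and 0.33, and for the glucosinolate gene BCAT4 −0.11 and 0.19. Over all probe sets with 1 gene name the medians were −0.03 and −0.00. These medians rest on few genes and carry no test.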

How the data were processed

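The authors deposited log2 expression values made with RMA, per the submitters' processing notes; for the RMA version, the sources used here give nothing. Of 22810 probe sets, 64 were controls and 22746 were tested. The platform annotation gave 1 gene name to 13513, several to 503 and none to 8730; 13436 of the first and all 86 genes of the set matched a locus of RefSeq's TAIR10.1 assembly, used for names and the order of loci only. In 43.9% of probe sets 2 or more arrays had identical values, and ties count as neither higher nor lower. No gene sequence was used here. The number of arrays limits the precision of every value.

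The genes, the lists and the tests were chosen with earlier results of these data known. Named with values were the 12 genes above and the 12 below wild type with the largest smaller difference, genes called between the mutant groups, those with the widest gap, and those nearest the limit of 0.4. Genes with a symbol, the other genes on arrays 2 and 3 and those with a second probe set were added after values were seen; the part of the rule on shared product names could not be applied, since the tables give none.

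Biotin-watered minus water-grown bio4-1 was tested with limma 3.58.1 in R 4.3.3 (lmFit and eBayes), all 9 arrays in 1 fit of group means, Benjamini-Hochberg adjusted over 22746 probe sets at 0.05. The step was tested on simulated arrays. The labels do not say whether arrays are separate batches of plants, so p-values measure the spread between pooled samples. Deviations of same-numbered arrays of the mutant groups from their group means correlated at 0.345, 0.269 and 0.319. Differently numbered arrays of these groups ran from −0.375 to 0.365, the highest for bio4-1 array 3 with biotin-watered array 2. Same-numbered arrays of wild type and biotin-watered bio4-1 correlated at 0.834, 0.615 and 0.750, and differently numbered ones from −0.790 to 0.655. For wild type and water-grown bio4-1 the same-numbered values were 0.218, −0.030 and 0.364. The numbers thus do not settle a pairing, and a fit with the replicate block was run as an alternative. In that limma fit, 26 of the 86 genes and 1850 of 22746 probe sets had an unadjusted p under 0.05. Tables were handled in pandas 2.3.3 under Python 3.11.15, and plots drawn with matplotlib 3.10.9.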

Additional observations from a re-analysis of the deposited data

How the results depend on the processing

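The number of genes meeting the conditions was 148 with a limit of 0.3, 54 with 0.5 and 365 with none; it was 89 after quantile normalization (78 shared with the 86), 90 after median centring (75 shared) and 60 with a mean log2 of at least 6. Leaving out 1 array or 1 array number gave 84 to 497. It was 136 and 135 without wild type array 2 or 3, and 497, 137 and 148 without array number 1, 2 or 3; fewer arrays make the conditions easier to meet. For biotin-watered minus water-grown bio4-1, limma called 0 of the 86 genes and 0 probe sets without a block and 0 and 0 with the replicate block as a paired fit, as it did after either normalization, with the filter at log2 6, with an intensity trend and with the mutant groups alone. The replicate block changed no other call. Array weights gave 8 of the 86 and 797 probe sets, arrays 2 and 3 alone 7 and 761, and a block separating array 1 of each group from the rest 0 and 13; the cause was not tested. Leaving out 1 array gave 0 to 0 and 0 to 2, the 2 without biotin-watered array 1. The median difference ranged from −0.60 to −0.33 above wild type and from −0.03 to 0.19 below with 1 array left out. Array weights gave −0.29 and −0.02, and arrays 2 and 3 gave −0.23 and −0.10, so the median below wild type had no stable sign. Of 18 alternatives, 8 cannot move a single gene's difference. Under the other 10, 248 of 250 values of 25 genes kept their direction. Of these genes, 21 were named for groups that do not overlap, where leaving out or weighting arrays cannot turn the direction. The count was thus largely fixed by the choice of genes and is no sign of stability. HAT2 (−0.14) turned to 0.077 without bio4-1 array 3 and to 0.068 without biotin-watered array 3, within −0.46 to 0.077 over arrays left out.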
